A study of Mus musculus with 10 samples.

Results

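The 34 genes described here make, move and control cholesterol: 18 enzymes of its synthesis from acetyl-CoA units to the finished sterol, 7 sterol sensors and transcription factors, 4 genes of lipoproteins and export, 3 of uptake and release from lysosomes, and 2 of storage and removal. They were taken by symbol from a count table of 55536 mouse genes, and all 34 were found and were among the 20301 genes tested. They do not include every gene of the pathway. The table comes from translating ribosome affinity purification (TRAP) in mouse primary somatosensory cortex (S1DZ in the labels), in which ribosomes carrying a GFP-tagged L10a protein were pulled down with antibodies against GFP and their RNA was sequenced. All mice received the same virus, AAV5-EF1α-Flex-EGFPL10a, at 400 nl per side and 0.1 µl per min, 4 weeks before collection, and the virus makes the tagged protein only where Cre is present. The mice carried Cre under the gene for the A, B or C subunit of the interleukin-17 receptor: 3 libraries were labelled Il-17ra-Cre, 3 Il-17rb-Cre and 4 Il-17rc-Cre. The groups differ only in this driver as far as the labels say, and no group without Cre and no whole-tissue RNA was used here, so each level is compared with the other pull-downs. The labels give neither the age nor the sex of the mice, and do not say whether the libraries of a group came from separate mice, so p-values measure the spread between these libraries.

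Cholesterol does not cross the blood-brain barrier in useful amounts, so the brain makes its own. Synthesis starts with acetyl-CoA, passes through mevalonate, isoprenoids and squalene, and ends with a series of sterol intermediates. SREBP2, encoded by Srebf2, switches on the enzymes when sterols are low. It is escorted by SCAP, and INSIG proteins hold the complex back when sterols are plentiful. The liver X receptors (Nr1h2, Nr1h3) switch on export when oxysterols are high. In the adult brain, astrocytes are known as the main suppliers of cholesterol to neurons through particles of apolipoprotein E, oligodendrocytes use it for myelin, and neurons remove the excess by turning it into 24S-hydroxycholesterol.

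Total counts ran from 39692925 to 165844244 per library, with 21205 to 24790 genes detected. Levels are given as CPM, the count of a gene relative to its library's total after TMM scaling for library composition. Markers of cell types differed widely between groups. The summed CPM of 8 astrocyte markers was 6138 to 10780 in Il-17ra-Cre, 267.2 to 318.6 in Il-17rb-Cre and 9434 to 11230 in Il-17rc-Cre. For 8 oligodendrocyte markers the sum was 44460, 30390 and 5315 in Il-17ra-Cre replicates 1 to 3, 1005 to 1150 in Il-17rb-Cre and 1032 to 3928 in Il-17rc-Cre. For 8 microglia and macrophage markers it was 441.5 to 764.5, 8.258 to 13.91 and 21.98 to 126.2, and Itgam and Mrc1 had no count in any Il-17rb-Cre library. In Il-17ra-Cre replicate 3 and Il-17rc-Cre replicate 3, 1 of the 8 markers had no count either. Itgam exons overlap another annotated gene over 68.7% of their length, so its counts are uncertain. For 6 excitatory neuron markers the sum was 1537, 1762 and 6589 in Il-17ra-Cre, 17580 to 20670 in Il-17rb-Cre and 2128 to 3543 in Il-17rc-Cre, so neuronal RNA of cortex was present in every library. The sum of 6 inhibitory neuron markers was 174.3 to 311.8 in Il-17ra-Cre, 930.7 to 1005 in Il-17rb-Cre and 461.8 to 571.9 in Il-17rc-Cre. In the same order, the sums were 530.3 to 1228, 33.43 to 51.09 and 509.3 to 620.1 for 4 markers of oligodendrocyte precursors, 61.74 to 70.57, 2.496 to 6.206 and 189.1 to 437.8 for 4 of mural cells, and 7.729 to 35.74, 1.108 to 5.566 and 22.37 to 80.52 for 4 of endothelial cells. Il-17ra-Cre replicate 3, the deepest library, stood apart from replicates 1 and 2 in some of these sums, such as those of oligodendrocytes and excitatory neurons. Its inhibitory neuron sum, 267.8, lay between theirs, and its mural sum, 70.57, was close to theirs. The transcript of the tagged ribosomal protein, Rpl10a, was at 678.8 CPM in replicate 3 against 58.66 and 70.93 in replicates 1 and 2. Its level was 602.4 to 669.6 CPM in Il-17rb-Cre and 190.8 to 267.1 in Il-17rc-Cre, so replicates 1 and 2 were the lowest. Because the Il-17ra-Cre replicates differed, calls of Il-17rb-Cre against Il-17ra-Cre that were lost with replicate 3 as its only library are marked beside each gene. In such bulk samples, fewer cells of a type and less RNA per cell cannot be told apart.

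Because many genes of cholesterol synthesis share control elements close to their start, the sequence just upstream is shown for 6 members whose levels behaved differently: 4 enzymes (Hmgcs1, Mvd, Sc5d and Ebp), the neuronal hydroxylase Cyp46a1 and the exporter Abca1. Each is the 250 bases before the annotated start, from RefSeq on build GRCm38.p6, written 5′ to 3′ on the strand of the gene. Capitals mark matches on either strand to the core of the sterol regulatory element bound by SREBP (TCACNCCAC), the E-box (CACGTG) or the NF-Y box (CCAAT, which reads ATTGG on the other strand). The liver X receptor repeat, 2 copies of AGGTCA with any 4 bases between them, was searched too. Hmgcs1 (chr13:119690101-119690350, plus strand) has the sterol element at -137 and NF-Y boxes at -237, -176 and -45, counted from the start to the first base of each match. Mvd (chr8:122443423-122443672, minus strand) has NF-Y boxes at -60 and -27, and Sc5d (chr9:42264301-42264550, minus strand) an E-box at -98 and an NF-Y box at -24. Ebp (chrX:8193513-8193762, minus strand) has NF-Y boxes at -170 and -55, Cyp46a1 (chr12:108334066-108334315, plus strand) a single one at -153, and Abca1 (chr4:53159896-53160145, minus strand) an E-box at -147.
Hmgcs1: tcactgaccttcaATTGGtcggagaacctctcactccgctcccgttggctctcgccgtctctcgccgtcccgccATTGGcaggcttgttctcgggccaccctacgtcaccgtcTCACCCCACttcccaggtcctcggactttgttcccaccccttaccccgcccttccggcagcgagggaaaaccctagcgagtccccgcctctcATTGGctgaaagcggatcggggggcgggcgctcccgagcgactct
Mvd: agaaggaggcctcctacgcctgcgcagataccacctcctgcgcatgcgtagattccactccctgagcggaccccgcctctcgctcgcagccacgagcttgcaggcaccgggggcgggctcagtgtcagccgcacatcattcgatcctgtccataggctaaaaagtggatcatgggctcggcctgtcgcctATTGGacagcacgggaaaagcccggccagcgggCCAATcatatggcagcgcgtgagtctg
Sc5d: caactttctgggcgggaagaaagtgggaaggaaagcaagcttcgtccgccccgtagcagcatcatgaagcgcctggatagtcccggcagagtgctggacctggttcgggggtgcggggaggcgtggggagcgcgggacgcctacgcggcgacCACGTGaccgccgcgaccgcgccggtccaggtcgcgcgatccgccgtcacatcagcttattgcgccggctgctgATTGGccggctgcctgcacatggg
Ebp: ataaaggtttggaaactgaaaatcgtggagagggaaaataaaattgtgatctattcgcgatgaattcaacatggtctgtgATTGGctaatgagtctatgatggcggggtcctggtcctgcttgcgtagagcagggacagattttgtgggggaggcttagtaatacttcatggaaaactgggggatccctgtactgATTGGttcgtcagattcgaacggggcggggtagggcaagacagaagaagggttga
Cyp46a1: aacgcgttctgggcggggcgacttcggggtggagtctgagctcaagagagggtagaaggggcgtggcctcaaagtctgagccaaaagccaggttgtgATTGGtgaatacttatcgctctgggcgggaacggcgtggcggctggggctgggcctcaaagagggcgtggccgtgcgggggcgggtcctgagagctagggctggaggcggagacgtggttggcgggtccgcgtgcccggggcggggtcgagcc
Abca1: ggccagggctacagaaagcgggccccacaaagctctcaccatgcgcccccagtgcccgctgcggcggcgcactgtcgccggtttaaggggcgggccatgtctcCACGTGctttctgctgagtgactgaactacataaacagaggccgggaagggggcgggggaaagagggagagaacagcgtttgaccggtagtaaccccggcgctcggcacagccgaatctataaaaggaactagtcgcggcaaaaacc

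Upstream sequence was found for 29 of the 34 genes, 15 of the 18 synthesis enzymes and 14 of the 16 other members. Fdps, Fdft1, Sqle, Abcg1 and Npc1 were not matched. An NF-Y box occurred in 14 of the 15 enzymes (93.3%) and 8 of the 14 other members (57.1%), against 33.8% of 32851 mouse promoters of the same length. Acat2 was the enzyme without one, and Dhcr7 had it only in a promoter other than its first listed. At least 2 NF-Y boxes stood in the first listed promoter of 8 enzymes and 2 other members, against 10.1% of all promoters. Mvk, which encodes mevalonate kinase, had them at -173, -120, -67, -50 and -14. The E-box occurred in 3 enzymes (20%) and 3 other members (21.4%), against 6.02% of promoters. The sterol regulatory element core as written occurred in 1 enzyme, Hmgcs1 (6.67%), and in no other member, against 1.05% of promoters. No member held the liver X receptor repeat in this window, which 0.0152% of promoters hold. Matches of different motifs did not overlap in any member. A gene with several listed promoters was counted when any of them held the motif, while the shares of all promoters count each promoter singly. A match describes letters and does not show that a protein binds there.

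**Figure D1:**
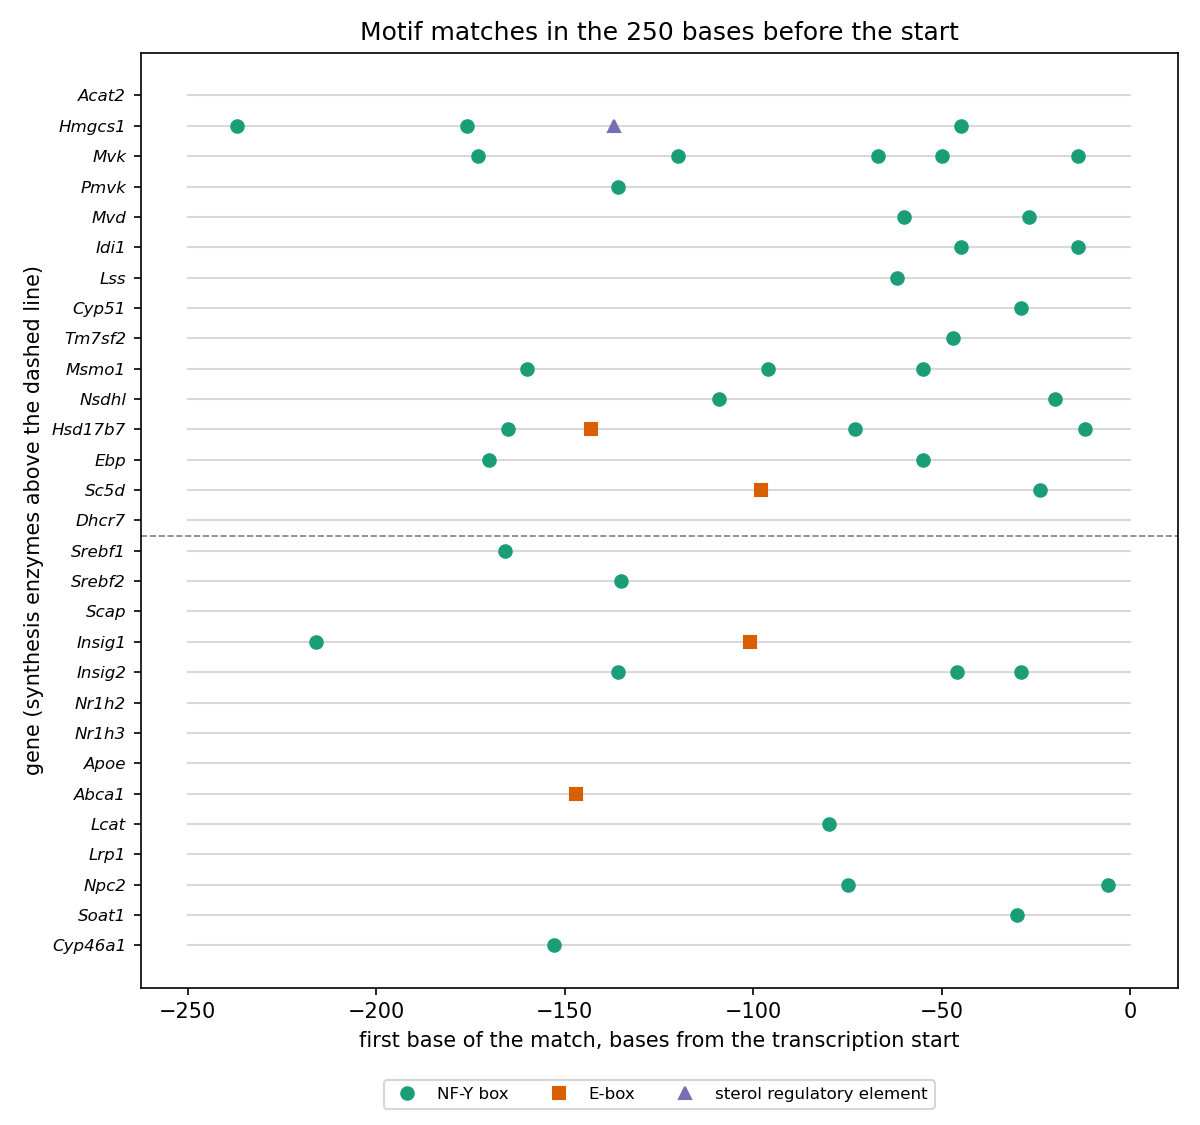
Motif matches in the 250 bases upstream of the first listed start of each member, with distance from the start in bases on the horizontal axis and 1 row per gene. Shapes and colours mark the NF-Y box, the E-box and the sterol regulatory element core, which is seen in Hmgcs1 alone, while NF-Y boxes lie in most rows of synthesis enzymes.

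The first comparison set Il-17rb-Cre against Il-17ra-Cre. In Il-17rb-Cre libraries 18 of the 34 genes were lower, 2 were higher (Srebf2 and Cyp46a1) and 14 did not pass the test. With edgeR's quasi-likelihood test at an adjusted p of 0.05, 40.7% of all 20301 genes were called in this comparison, 16.4% higher and 24.4% lower. The median log2 fold change was -0.68 over the members and -0.09 over all genes tested. Among the members 5 had all Il-17rb-Cre libraries above all Il-17ra-Cre libraries and 20 had them all below, where 24.6% and 29.2% of all genes did so (53.8% in either direction). The number of members called higher was 4 without Il-17ra-Cre replicate 3. With replicate 3 as the only Il-17ra-Cre library, assumed to vary like the other groups, 12 of the 20 calls were kept and 1 was added (Msmo1). The 8 that were lost were Mvk, Idi1, Hsd17b7, Ebp, Dhcr7, Srebf2, Nr1h2 and Abcg1.

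Against Il-17rc-Cre, 23 of the 34 genes were lower in Il-17rb-Cre, 1 was higher (Cyp46a1) and 10 did not pass. Over all genes 39.7% were called, 17.7% higher and 21.9% lower. The members' median log2 fold change was -1.08, against 0.02 over all genes. All Il-17rb-Cre libraries lay above all Il-17rc-Cre libraries for 3 members and below them for 24, where 27.5% and 25.5% of all genes did so (53.0% in either direction). The 2 comparisons use the same Il-17rb-Cre libraries and are not independent.

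Between Il-17ra-Cre and Il-17rc-Cre, 1 member was higher in Il-17ra-Cre (Abcg1) and 6 were lower: the enzymes Mvd, Fdft1, Sqle and Nsdhl and the regulators Srebf2 and Nr1h3. In this comparison 2.18% of all genes were called, 1.38% higher and 0.798% lower. The median log2 fold change was -0.38 over the members and 0.03 over all genes. All Il-17ra-Cre libraries lay below all Il-17rc-Cre libraries for 14 members and above them for 2, where 6.65% and 7.92% of all genes did so (14.6% in either direction). The calls changed with the libraries in the fit, including Il-17rb-Cre libraries, which enter only through the estimate of the spread. None of the 7 was called when Il-17ra-Cre replicate 1 or 2, Il-17rb-Cre replicate 2 or 3, or Il-17rc-Cre replicate 1, 3 or 4 was left out, Sqle alone was kept without Il-17rb-Cre replicate 1, and 5 were kept without Il-17rc-Cre replicate 2. Without Il-17ra-Cre replicate 3 all 7 were kept and 8 more members were called, for 4 higher and 11 lower in all. No log2 fold change of the 7 changed sign: with any 1 library left out, the log2 fold change was -1.34 to -0.998 for Mvd, -1.13 to -0.93 for Fdft1, -1.10 to -0.94 for Sqle, -0.82 to -0.58 for Nsdhl, -0.81 to -0.68 for Srebf2, -1.09 to -0.85 for Nr1h3 and 2.27 to 3.09 for Abcg1.

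**Figure D2:**
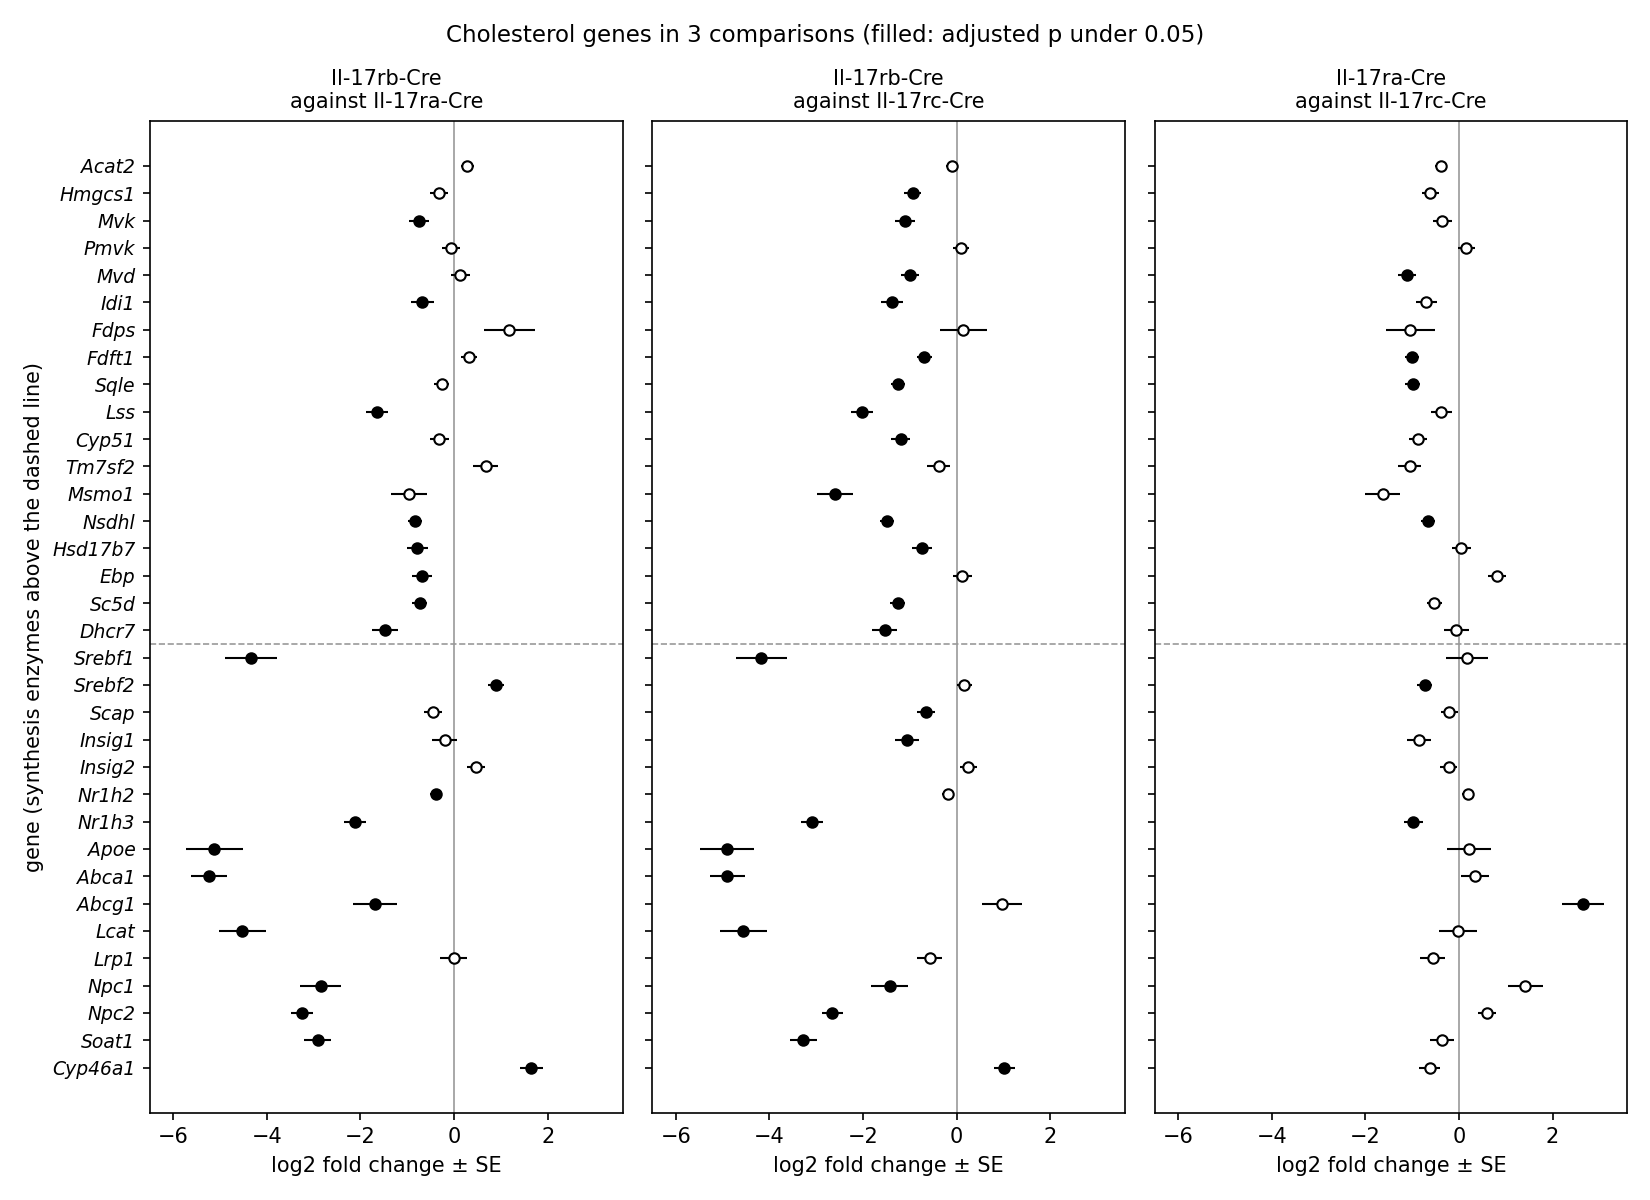
Log2 fold change of each member (horizontal axis) in the 3 comparisons, with bars of 1 standard error and filled points for genes with an edgeR adjusted p under 0.05. Most points of the 2 comparisons with Il-17rb-Cre lie left of 0, Abca1 and Apoe farthest, and Cyp46a1 lies right of 0 in both.

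Of the 8 genes that lead from acetyl-CoA units to squalene, none was higher in Il-17rb-Cre than in Il-17ra-Cre by the test. Lower were 2 (Mvk and Idi1), a share of 25% that is near the 24.4% of all genes. Against Il-17rc-Cre 5 (62.5%) were lower (Hmgcs1, Mvk, Mvd, Idi1 and Fdft1), where 21.9% of all genes were. The median log2 fold change of the 8 was 0.04 against Il-17ra-Cre and -0.81 against Il-17rc-Cre. Hmgcs1 makes HMG-CoA, the precursor of mevalonate, and is a classic target of SREBP2. Its level was 136, 104 and 94.4 CPM in Il-17ra-Cre replicates 1 to 3, 92.8, 93.2 and 82.4 in Il-17rb-Cre replicates 1 to 3, and 166, 157, 145 and 215 in Il-17rc-Cre replicates 1 to 4. Every Il-17rc-Cre library lay above every other, and the Il-17ra-Cre and Il-17rb-Cre libraries lay close together without overlapping. The log2 fold change of Il-17rb-Cre was -0.93 ± 0.18 (SE) against Il-17rc-Cre (edgeR's adjusted p = 0.00275) and -0.32 ± 0.19 against Il-17ra-Cre (adjusted p = 0.21). 

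Mvd, which decarboxylates mevalonate diphosphate to make the first isoprenoid unit, separated Il-17rc-Cre from both other groups. It was at 28.3, 23.7 and 38.8 CPM in Il-17ra-Cre, 33.4, 33.6 and 32.4 in Il-17rb-Cre and 81.3, 58.95, 58.4 and 63.8 in Il-17rc-Cre. The first pair of groups overlapped and the Il-17rc-Cre libraries were all higher. Its log2 fold change was -0.99 ± 0.19 for Il-17rb-Cre and -1.12 ± 0.20 for Il-17ra-Cre, each against Il-17rc-Cre (edgeR's adjusted p = 0.0028 and 0.0375). Fdft1, squalene synthase, showed the same order, with 88.3, 70.8 and 99.9 CPM in Il-17ra-Cre, 113, 112 and 98.3 in Il-17rb-Cre and 176, 159, 160.3 and 199 in Il-17rc-Cre. Again only the Il-17rc-Cre libraries stood clear of the rest. The log2 fold changes against Il-17rc-Cre were -0.69 ± 0.16 for Il-17rb-Cre and -1.01 ± 0.16 for Il-17ra-Cre (edgeR's adjusted p = 0.00598 and 0.0284). Without Il-17ra-Cre replicate 3, Fdft1 was higher in Il-17rb-Cre than in Il-17ra-Cre by 0.44 on the log2 scale (adjusted p = 0.0421). Fdft1 shares 26.5% of its 50-base stretches with other genes, mostly its neighbour Ctsb, so part of its reads may not be its own.

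Mevalonate kinase (Mvk) and the isomerase Idi1, which interconverts the isoprenoid units, were lowest in Il-17rb-Cre. Mvk was at 21.1, 25.2 and 28.8 CPM in Il-17ra-Cre, 14.98, 18.3 and 11.5 in Il-17rb-Cre and 32.2, 25.5, 32.9 and 37.4 in Il-17rc-Cre, so the Il-17rb-Cre libraries lay below all others. Idi1 was at 21.2, 13.98 and 11.6 CPM, 9.22, 10.4 and 9.49 CPM and 27.5, 20.9, 23.1 and 29.4 CPM in the same order of groups, also with the Il-17rb-Cre libraries below all others. Against Il-17rc-Cre the log2 fold changes were -1.10 ± 0.21 for Mvk and -1.38 ± 0.23 for Idi1 (edgeR's adjusted p = 0.00238 and 0.00121). Against Il-17ra-Cre they were -0.75 ± 0.22 and -0.68 ± 0.24 (adjusted p = 0.0206 and 0.046). The call of Mvk against Il-17ra-Cre was lost without Il-17rb-Cre replicate 1 or 3 (adjusted p = 0.0567 and 0.0797), and that of Idi1 without any one library except Il-17ra-Cre replicate 3 and Il-17rc-Cre replicate 2 (adjusted p from 0.0523 to 0.208 in the others). Against Il-17ra-Cre replicate 3 alone neither passed, with -0.935 for Mvk and -0.24 for Idi1 (adjusted p = 0.0557 and 0.582). 

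The other early enzymes did not pass the test in any comparison. Acat2, a cytosolic thiolase that joins acetyl-CoA units, ran from 40.31 to 59.24 CPM over the 10 libraries. Pmvk, phosphomevalonate kinase, ran from 56.9 to 87.9 CPM in Il-17ra-Cre, 58.7 to 73.9 in Il-17rb-Cre and 52.9 to 66.03 in Il-17rc-Cre, and the groups overlapped. Fdps, farnesyl diphosphate synthase, stayed between 0.2919 and 1.076 CPM. Its exons overlap another annotated gene over 26.7% of their length and 26.2% of its 50-base stretches occur elsewhere, as do 39.1% of those of Acat2 and 25.3% of those of Idi1, so these levels are uncertain. For Hmgcs1, Scap and Tm7sf2 the share was 11.6%, 9.96% and 9.87%, and for every other member below these values except Fdft1.

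Of the 10 enzymes that turn squalene into cholesterol, 6 (60%) were lower in Il-17rb-Cre than in Il-17ra-Cre and 8 (80%) lower than in Il-17rc-Cre, and none was higher. Of all genes 24.4% and 21.9% were lower in these comparisons. The median log2 fold change of the 10 enzymes was -0.76 and -1.26 in the 2 comparisons. In both comparisons the largest differences were those of lanosterol synthase (Lss), the 3-beta-hydroxysteroid dehydrogenase Nsdhl, the last-step reductase Dhcr7 and the methyl oxidase Msmo1. Lss, which folds squalene epoxide into lanosterol, was at 23.9, 17.5 and 14.1 CPM in Il-17ra-Cre, 4.99, 6.90 and 5.80 in Il-17rb-Cre and 22.2, 21.4, 23.2 and 29.1 in Il-17rc-Cre. The Il-17rb-Cre values were all far below the lowest of the other libraries. The log2 fold change was -1.65 ± 0.24 against Il-17ra-Cre and -2.02 ± 0.23 against Il-17rc-Cre (edgeR's adjusted p = 0.000548 and 0.000124), a 3.13-fold and a 4.06-fold difference.

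Msmo1 (GRCm38 chromosome 8, 64718139 to 64733792), which removes methyl groups from the sterol ring, varied more than any other enzyme over the 10 libraries. It was at 55.8, 56.3 and 139 CPM in Il-17ra-Cre, 36.2, 47.6 and 44.3 in Il-17rb-Cre and 175, 239, 236 and 385 in Il-17rc-Cre. Il-17ra-Cre replicate 3 was 2.48-fold above the mean of replicates 1 and 2 and all Il-17rc-Cre libraries were higher still. Il-17rb-Cre was 6.06-fold below Il-17rc-Cre, a log2 fold change of -2.60 ± 0.39 (edgeR's adjusted p = 0.000588). Against Il-17ra-Cre the log2 fold change of -0.97 ± 0.38 did not pass (adjusted p = 0.0671), although it did without Il-17ra-Cre replicate 1 (adjusted p = 0.0469) or 2 (adjusted p = 0.0466), and was -1.69 against replicate 3 alone (adjusted p = 0.0116). For Il-17ra-Cre against Il-17rc-Cre it was -1.63 ± 0.37 (adjusted p = 0.0539), and without Il-17ra-Cre replicate 3 it was -2.21 (adjusted p = 0.00307).

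Nsdhl, which acts on the same methyl groups, was ordered without overlap. Its level was 13.2, 15 and 14.04 CPM in Il-17rb-Cre, 27.9, 24.9 and 22.2 in Il-17ra-Cre and 40.9, 42.8, 36.98 and 37.4 in Il-17rc-Cre. It was the enzyme with the smallest p against Il-17rc-Cre, with a log2 fold change of -1.49 ± 0.15 (edgeR's adjusted p = 4.64e-05), and was lower than in Il-17ra-Cre too (-0.83 ± 0.15, adjusted p = 0.00191). Sc5d, the lathosterol oxidase, was at 51.7, 34.7 and 39.5 CPM in Il-17ra-Cre, 24.2, 26.8 and 24.5 in Il-17rb-Cre and 57.2, 61.9, 57.1 and 65.02 in Il-17rc-Cre. All 3 groups were again separate, with Il-17rb-Cre lowest. The log2 fold change of Il-17rb-Cre was -0.73 ± 0.17 against Il-17ra-Cre and -1.26 ± 0.16 against Il-17rc-Cre (edgeR's adjusted p = 0.00587 and 0.000224).

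Squalene epoxidase (Sqle), which is regarded as a control point of the pathway, and lanosterol demethylase (Cyp51) were highest in Il-17rc-Cre. Sqle was at 32.4, 28.1 and 32.6 CPM in Il-17ra-Cre, 21.4, 29.96 and 26.04 in Il-17rb-Cre and 58.8, 60.03, 60.2 and 67.99 in Il-17rc-Cre. Cyp51 was at 33.4, 26.9 and 28.5, 28.6, 25.2 and 17.7 and 42.6, 58.3, 57.4 and 59.2 CPM in the same order. In both, the Il-17ra-Cre and Il-17rb-Cre libraries overlapped and the Il-17rc-Cre libraries were above them. Il-17rb-Cre was lower than Il-17rc-Cre by a log2 fold change of -1.26 ± 0.15 for Sqle and -1.19 ± 0.20 for Cyp51 (edgeR's adjusted p = 0.000168 and 0.00117). For Il-17ra-Cre against Il-17rc-Cre the values were -0.99 ± 0.15 and -0.88 ± 0.20 (adjusted p = 0.0284 and 0.0529).

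Dhcr7, which reduces 7-dehydrocholesterol to cholesterol, and Hsd17b7, a ketosteroid reductase of the same branch, were lower in Il-17rb-Cre than in either other group. Dhcr7 was at 26.3, 23.5 and 15.2 CPM in Il-17ra-Cre, 8.20, 8.04 and 7.06 in Il-17rb-Cre and 18.1, 17.2, 23.01 and 31.7 in Il-17rc-Cre. The Il-17ra-Cre and Il-17rc-Cre libraries overlapped and the Il-17rb-Cre libraries lay below both. Its log2 fold change was -1.48 ± 0.28 against Il-17ra-Cre and -1.53 ± 0.27 against Il-17rc-Cre (edgeR's adjusted p = 0.00244 and 0.00153). Against Il-17ra-Cre replicate 3 alone it was -0.955, which did not pass (adjusted p = 0.0853). For Hsd17b7, at 8.94 to 11.5 CPM in Il-17rb-Cre against 14.3 to 21.7 and 12.8 to 18.6, the values were -0.78 ± 0.23 and -0.73 ± 0.22 (adjusted p = 0.0202 and 0.0222). The Hsd17b7 call against Il-17ra-Cre was lost without Il-17ra-Cre replicate 1 (adjusted p = 0.0906) or Il-17rb-Cre replicate 1 or 2 (0.0776 and 0.0753) or against Il-17ra-Cre replicate 3 alone (-0.51, adjusted p = 0.263), and that against Il-17rc-Cre without Il-17rb-Cre replicate 1 or 2 (0.0722 and 0.0702) or Il-17rc-Cre replicate 1 (0.0543).

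Ebp, the sterol isomerase, departed from the other late enzymes. It was at 47.1, 35.3 and 33.7 CPM in Il-17ra-Cre, 22.4, 23.6 and 26.5 in Il-17rb-Cre and 16.2, 26.1, 22.3 and 24.1 in Il-17rc-Cre. The Il-17ra-Cre libraries were the highest and the other two groups overlapped. Il-17rb-Cre was below Il-17ra-Cre by a log2 fold change of -0.68 ± 0.21 (edgeR's adjusted p = 0.0264), a call lost without Il-17ra-Cre replicate 1 (adjusted p = 0.106) or Il-17rb-Cre replicate 1 or 2 (0.0887 and 0.082), and at -0.47 against Il-17ra-Cre replicate 3 alone (0.277). Against Il-17rc-Cre the value was 0.12 ± 0.20 (adjusted p = 0.642). Tm7sf2, a sterol reductase, was at 4.78 to 5.60 CPM in Il-17ra-Cre, 6.27 to 10.6 in Il-17rb-Cre and 8.94 to 12.7 in Il-17rc-Cre and passed in no comparison. Without Il-17rb-Cre replicate 1 it was called higher in Il-17rb-Cre than in Il-17ra-Cre, by 0.83 on the log2 scale (adjusted p = 0.0452).

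**Figure D3:**
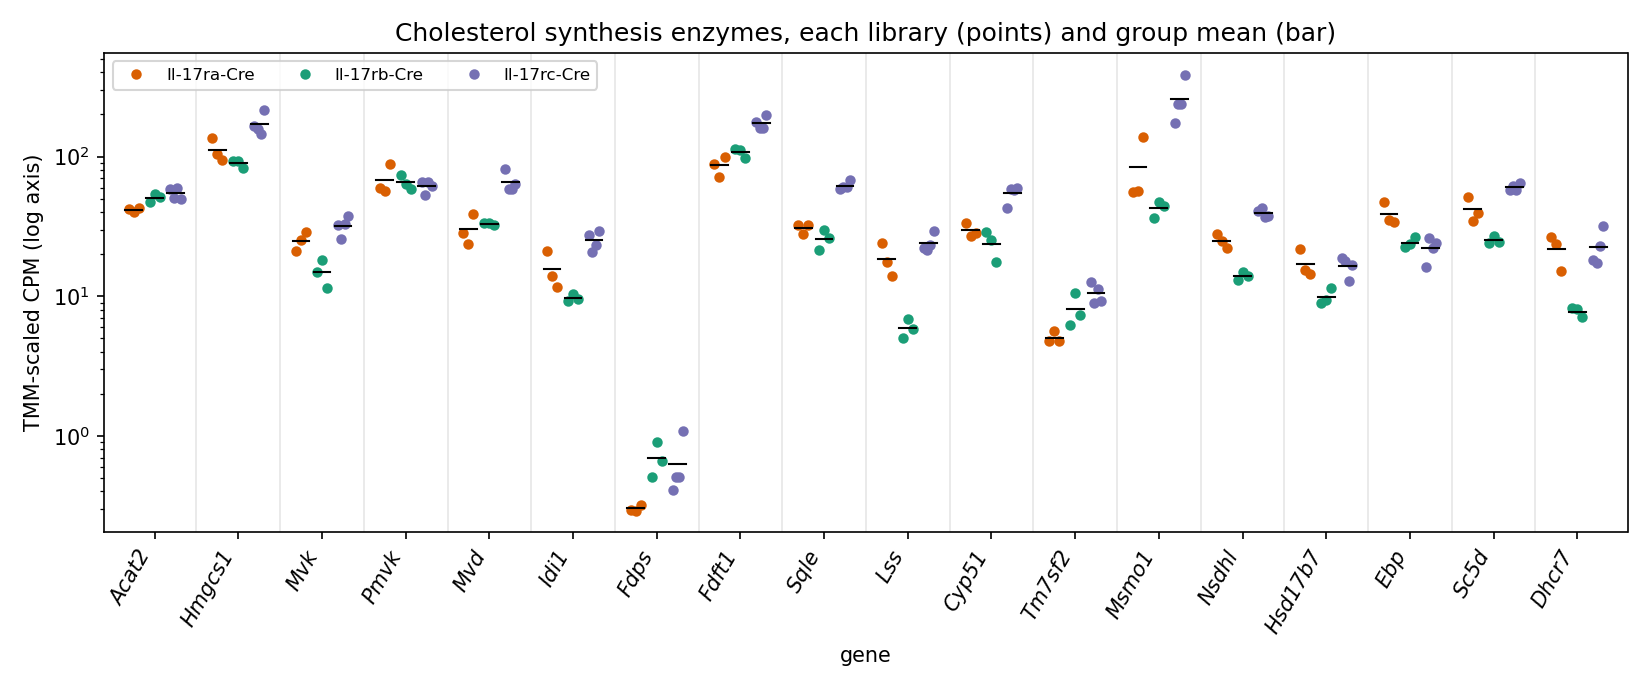
CPM of the 18 synthesis enzymes on a log axis, in pathway order, with 1 point per library and a bar at each group mean. The Il-17rb-Cre points lie lowest for Lss, Nsdhl, Sc5d and Dhcr7, and the Il-17rc-Cre points lie clear above the other groups for Mvd, Fdft1, Sqle, Cyp51 and Msmo1.

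Summed over the 18 enzymes, the level was 722.3, 603.4 and 748 CPM in Il-17ra-Cre, 559.5, 588.9 and 529.4 in Il-17rb-Cre and 1070, 1079, 1086 and 1382 in Il-17rc-Cre. The sum follows the most abundant enzymes, Hmgcs1, Fdft1 and Msmo1. All Il-17rc-Cre libraries were above all others, and the Il-17ra-Cre libraries were above the Il-17rb-Cre libraries without overlap. Of the 18 enzymes 8 (44.4%) were lower in Il-17rb-Cre than in Il-17ra-Cre by the test, with a median log2 fold change of -0.50. Against Il-17rc-Cre 13 (72.2%) were lower, with a median of -1.04. Of all genes 24.4% and 21.9% were lower in these comparisons. The astrocyte marker sums were 6138 to 10780, 267.2 to 318.6 and 9434 to 11230 CPM in Il-17ra-Cre, Il-17rb-Cre and Il-17rc-Cre. The part of astrocytes, oligodendrocytes or any other cell type in these differences was not tested.

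The regulators split by factor. Srebf1 (GRCm38 chromosome 11, 60199089 to 60222581) encodes SREBP1, which is known chiefly for fatty acid synthesis and is itself a target of the liver X receptors, and Srebf2 encodes SREBP2, the main activator of cholesterol synthesis. Srebf1 was at 217, 168 and 44.5 CPM in Il-17ra-Cre, 5.74, 6.90 and 8.46 in Il-17rb-Cre and 146, 82.1, 176 and 103 in Il-17rc-Cre. Il-17ra-Cre replicate 3 was 4.32-fold below the mean of replicates 1 and 2, yet the lowest library outside Il-17rb-Cre was still far above the highest within it. Il-17rb-Cre was 20.3-fold below Il-17ra-Cre and 18.01-fold below Il-17rc-Cre, with log2 fold changes of -4.34 ± 0.56 and -4.17 ± 0.54 (edgeR's adjusted p = 0.000254 and 0.000243). Against Il-17ra-Cre replicate 3 alone the log2 fold change was -2.65.

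Srebf2 went the other way against Il-17ra-Cre. Its level was 77.3, 84.2 and 93.7 CPM in Il-17ra-Cre, 137, 188 and 151 in Il-17rb-Cre and 155, 119.8, 158 and 134 in Il-17rc-Cre. Each Il-17ra-Cre library lay below every other library, and Il-17rb-Cre and Il-17rc-Cre overlapped. The log2 fold change of Il-17rb-Cre was 0.90 ± 0.17 against Il-17ra-Cre (edgeR's adjusted p = 0.00243) and 0.16 ± 0.16 against Il-17rc-Cre (adjusted p = 0.449). Against Il-17ra-Cre replicate 3 alone it was 0.77 and did not pass (adjusted p = 0.0692). That of Il-17ra-Cre against Il-17rc-Cre was -0.74 ± 0.16 (adjusted p = 0.0495). Per kilobase of exon, the ratio of the Srebf1 level to the Srebf2 level within a library was 0.6063 to 3.572 in Il-17ra-Cre, 0.04681 to 0.07135 in Il-17rb-Cre and 0.8735 to 1.419 in Il-17rc-Cre. Srebf2 was thus the more abundant transcript in all Il-17rb-Cre libraries by this measure, and the ratios of that group did not overlap the others.

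SCAP escorts SREBP proteins from the endoplasmic reticulum, and INSIG proteins hold the complex back when sterols are plentiful. Scap was at 55.4, 51.5 and 38.2 CPM in Il-17ra-Cre, 34.4, 37.9 and 34.3 in Il-17rb-Cre and 58.9, 55.7, 66.5 and 42.4 in Il-17rc-Cre, the Il-17rb-Cre libraries being lowest. Its log2 fold change was -0.65 ± 0.19 against Il-17rc-Cre (edgeR's adjusted p = 0.0187), which was lost without Il-17rb-Cre replicate 1 or 3 (0.0571 and 0.0581), and -0.45 ± 0.20 against Il-17ra-Cre (adjusted p = 0.0961), which passed without Il-17ra-Cre replicate 3 (0.0252). Insig1, itself switched on by SREBP, was at 21.2, 16.1 and 26.5 CPM, 16.6, 24.8 and 14.2 CPM and 44.7, 29.1, 43.6 and 37.1 CPM in Il-17ra-Cre, Il-17rb-Cre and Il-17rc-Cre. The Il-17rc-Cre libraries were all highest, and the log2 fold change of Il-17rb-Cre against them was -1.06 ± 0.26 (edgeR's adjusted p = 0.00851). Insig2 did not pass in any comparison, at 36.01 to 58.2 CPM, 57.5 to 66.2 CPM and 47.4 to 54.5 CPM, but without Il-17ra-Cre replicate 3 it was 0.74 higher in Il-17rb-Cre than in Il-17ra-Cre on the log2 scale (adjusted p = 0.00145) and lower in Il-17ra-Cre than in Il-17rc-Cre (adjusted p = 0.0347). The ratio of Insig1 to Insig2 per kilobase was 0.5022 to 0.6357 in Il-17ra-Cre, 0.277 to 0.4199 in Il-17rb-Cre and 0.6486 to 1.033 in Il-17rc-Cre, without overlap between any of the groups.

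The liver X receptors also differed from each other. Nr1h3 encodes LXR-alpha and was at 14.7, 16.9 and 14.9 CPM in Il-17ra-Cre, 3.68, 2.99 and 4.03 in Il-17rb-Cre and 34.1, 37.8, 26.7 and 23.1 in Il-17rc-Cre. All 3 groups were separate, and the Il-17ra-Cre replicates, replicate 3 included, lay close together. Among all 34 genes it had the smallest p of Il-17rb-Cre against Il-17rc-Cre, with a log2 fold change of -3.09 ± 0.23 (edgeR's adjusted p = 8.57e-06), and against Il-17ra-Cre it was -2.12 ± 0.23 (adjusted p = 9.89e-05). Nr1h2, which encodes the widely expressed LXR-beta, varied little, from 123 to 131 CPM in Il-17rb-Cre to 152 to 184 in Il-17ra-Cre, with 134 to 156 in Il-17rc-Cre. Its log2 fold change against Il-17ra-Cre was -0.38 ± 0.13 (edgeR's adjusted p = 0.0389), a call lost without any one library except Il-17ra-Cre replicate 3 and Il-17rc-Cre replicate 4 (adjusted p from 0.0508 to 0.149), and at -0.25 against Il-17ra-Cre replicate 3 alone (adjusted p = 0.33). Per kilobase, Nr1h3 stood at 0.1067 to 0.1402 of Nr1h2 in Il-17ra-Cre, 0.03044 to 0.04269 in Il-17rb-Cre and 0.2275 to 0.3536 in Il-17rc-Cre.

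Export from the cell showed the largest differences of the set. Apoe (GRCm38 chromosome 7, 19696109 to 19699188) encodes the main apolipoprotein of brain lipoprotein particles. It was at 9933, 10900 and 2279 CPM in Il-17ra-Cre, 244, 207 and 213 in Il-17rb-Cre and 8430, 4866, 9347 and 3886 in Il-17rc-Cre. The Il-17rb-Cre libraries were within a narrow range, far below the lowest library of the other groups, and Il-17ra-Cre replicate 3 was 4.57-fold below the mean of replicates 1 and 2. The log2 fold change of Il-17rb-Cre was -5.12 ± 0.60 against Il-17ra-Cre and -4.91 ± 0.59 against Il-17rc-Cre (edgeR's adjusted p = 0.000159 and 0.000151), and -3.35 against Il-17ra-Cre replicate 3 alone. Apoe made up 58.7% to 84.8% of the summed CPM of the 34 genes in Il-17ra-Cre, 12.7% to 16.4% in Il-17rb-Cre and 61.6% to 79.7% in Il-17rc-Cre. Without Apoe the sums were 1602 to 2080, 1244 to 1430 and 2190 to 2426 CPM.

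Abca1, which loads cholesterol onto apolipoproteins, was low in Il-17rb-Cre. It was at 75.8, 101 and 39.3 CPM in Il-17ra-Cre, 1.97, 2.43 and 1.31 in Il-17rb-Cre and 48.6, 59.2, 64.1 and 55.5 in Il-17rc-Cre. The Il-17rb-Cre libraries lay far below the rest, and the other groups overlapped. Il-17rb-Cre was 37.7-fold below Il-17ra-Cre and 29.8-fold below Il-17rc-Cre, with log2 fold changes of -5.24 ± 0.39 and -4.90 ± 0.37 (edgeR's adjusted p = 1.24e-05 and 9.6e-06). Against Il-17ra-Cre replicate 3 alone it was -4.35. Lcat, whose product esterifies cholesterol on lipoprotein particles outside the cell, was at 83.1, 102 and 40.7 CPM in Il-17ra-Cre, 1.31, 4.31 and 4.13 in Il-17rb-Cre and 83.5, 63.8, 98.8 and 61.4 in Il-17rc-Cre. It too was low in each Il-17rb-Cre library, with log2 fold changes of -4.53 ± 0.51 and -4.56 ± 0.50 against Il-17ra-Cre and Il-17rc-Cre (edgeR's adjusted p = 0.000117 and 8.59e-05), and -3.62 against Il-17ra-Cre replicate 3 alone.

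Abcg1, an exporter that passes cholesterol to lipidated particles, had another order. It was at 95.7, 89.3 and 20.4 CPM in Il-17ra-Cre, 20.7, 23.1 and 19.9 in Il-17rb-Cre and 8.52, 15.5, 8.71 and 10.6 in Il-17rc-Cre. Il-17ra-Cre replicates 1 and 2 were high, replicate 3 lay among the Il-17rb-Cre libraries, and all Il-17rc-Cre libraries were lowest. The summed oligodendrocyte markers were high in the same pair of libraries, at 44460 and 30390 CPM against 5315 in replicate 3, and their part in the Abcg1 difference was not tested. Il-17ra-Cre was above Il-17rc-Cre by a log2 fold change of 2.66 ± 0.45 (edgeR's adjusted p = 0.0373). Il-17rb-Cre was below Il-17ra-Cre with a log2 fold change of -1.69 ± 0.48 (adjusted p = 0.0177), a call lost without Il-17ra-Cre replicate 1 (adjusted p = 0.0674) or 2 (0.0623) or Il-17rb-Cre replicate 1 (0.057) or 3 (0.0579), and against Il-17ra-Cre replicate 3 alone the log2 fold change was 0.07. Against Il-17rc-Cre, Il-17rb-Cre was above by 0.97 ± 0.43, which did not pass (adjusted p = 0.102) but did without Il-17ra-Cre replicate 3 (0.00464), a library that enters this fit through its estimate of the spread. The ratio of Abcg1 to Abca1 per kilobase was 0.7383 to 1.794 in Il-17ra-Cre, 13.52 to 21.48 in Il-17rb-Cre and 0.193 to 0.3717 in Il-17rc-Cre.

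Astrocytes are the known main source of Apoe in brain. Like Apoe and Abca1, the marker lists of astrocytes and other non-neuronal cells had negative median log2 fold changes in Il-17rb-Cre. Within the other groups Apoe and the astrocyte sum did not always share an order. In Il-17rc-Cre, replicate 4 had the lowest Apoe level (3886 CPM) and the highest astrocyte sum (11230 CPM). In Il-17ra-Cre, replicate 3 was lowest in both (2279 and 6138 CPM). All 8 astrocyte markers were lower in Il-17rb-Cre than in either other group, with a median log2 fold change of -4.03 against Il-17ra-Cre and -5.07 against Il-17rc-Cre, and all had counts in every Il-17rb-Cre library. The 4 mural cell markers (medians -4.33 and -6.91) and the 4 markers of oligodendrocyte precursors (-4.11 and -3.42) were all lower in both comparisons as well. Of the 8 microglia and macrophage markers 8 and 6 were lower (-5.40 and -2.38), of the 8 oligodendrocyte markers 8 and 1 (-4.68 and -0.87), and of the 4 endothelial markers 1 and 4 (-2.48 and -3.29). The part of RNA from any of these cell types in the levels of Apoe, Abca1, Lcat, Srebf1 and Nr1h3 was not tested.

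**Figure D4:**
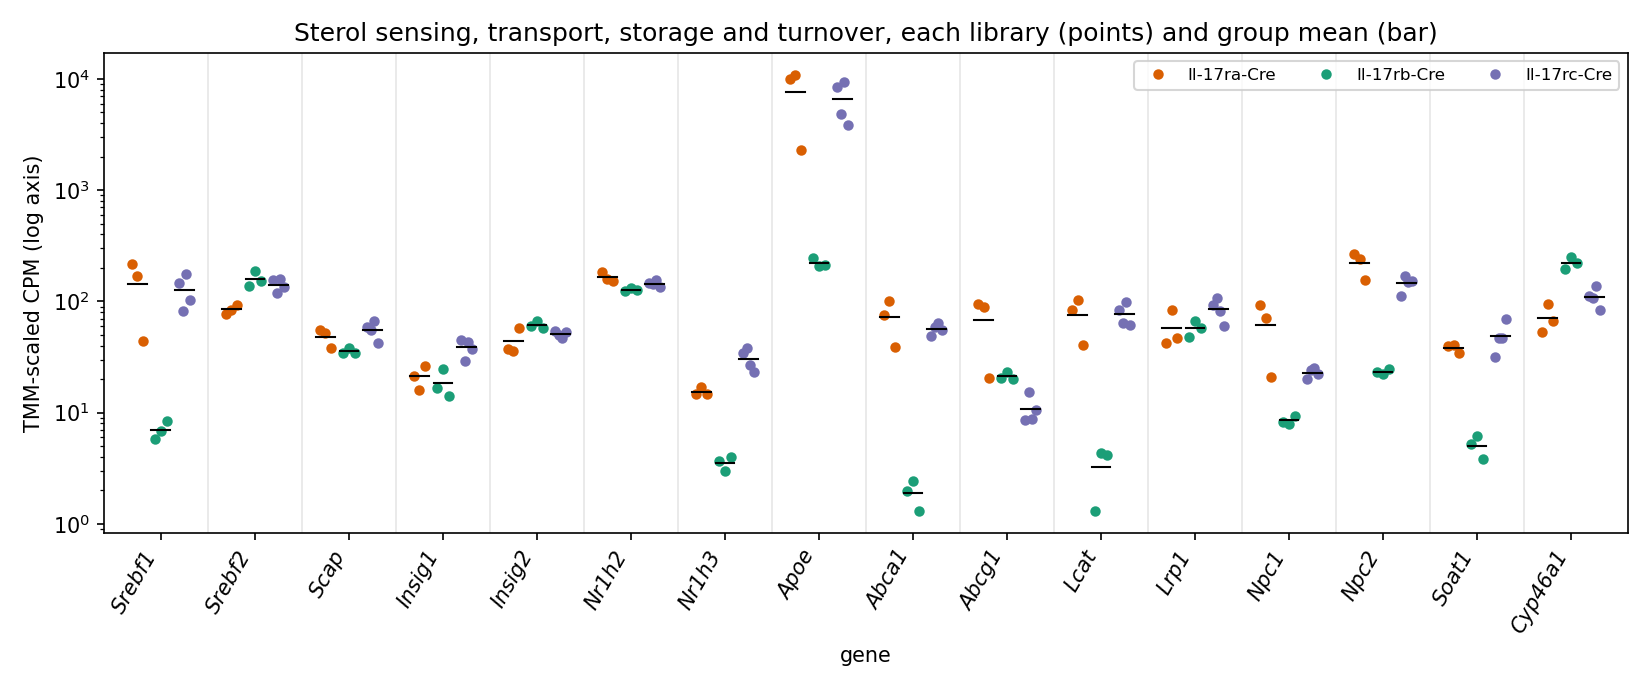
CPM of the 16 members outside synthesis on a log axis, with 1 point per library and a bar at each group mean. Il-17rb-Cre points lie lowest for Srebf1, Nr1h3, Apoe, Abca1, Lcat, Npc1, Npc2 and Soat1 and highest for Cyp46a1, and 1 Il-17ra-Cre point (replicate 3) lies well below its group for Srebf1, Apoe, Abcg1 and Npc1.

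**Figure D5:**
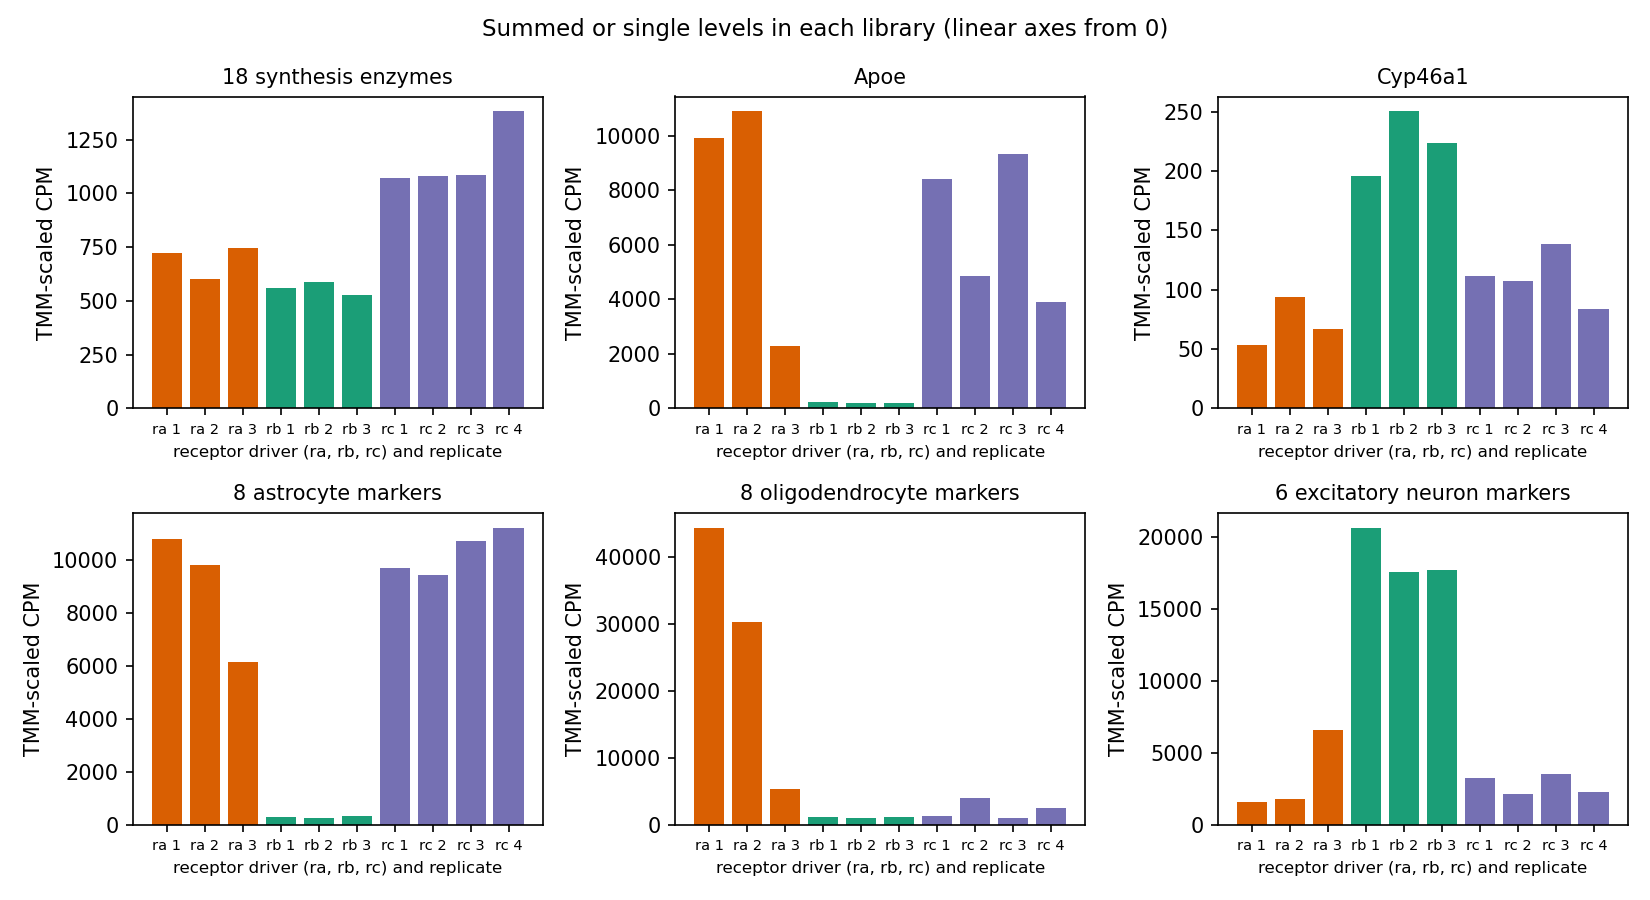
CPM in each of the 10 libraries (bars from 0 on linear axes, coloured by group): the sum of the 18 synthesis enzymes, Apoe and Cyp46a1 in the upper row, and the summed markers of astrocytes, oligodendrocytes and excitatory neurons in the lower row. The synthesis sum is highest in the 4 Il-17rc-Cre libraries (1070 to 1382 CPM), and in the 3 Il-17rb-Cre libraries Apoe and the astrocyte sum are low while Cyp46a1 and the excitatory neuron sum are high.

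Cholesterol taken up with lipoproteins passes through lysosomes, where NPC2 hands it to NPC1 for release. Npc2 was at 268, 241 and 157 CPM in Il-17ra-Cre, 22.99, 22.1 and 24.8 in Il-17rb-Cre and 112, 170.1, 150.2 and 153 in Il-17rc-Cre. Il-17rb-Cre lay well below both other groups, which overlapped, with log2 fold changes of -3.25 ± 0.24 against Il-17ra-Cre and -2.65 ± 0.22 against Il-17rc-Cre (edgeR's adjusted p = 1.13e-05 and 1.66e-05). Npc1 was at 92.8, 70.7 and 20.8 CPM, 8.26, 7.97 and 9.32 CPM and 20.02, 24.2, 25.01 and 22.5 CPM in the same order. Replicate 3 of Il-17ra-Cre was 3.93-fold below the mean of replicates 1 and 2 and fell among the Il-17rc-Cre libraries. Il-17rb-Cre was lower than Il-17ra-Cre by a log2 fold change of -2.85 ± 0.44 (edgeR's adjusted p = 0.000728), or -1.27 against replicate 3 alone, and lower than Il-17rc-Cre by -1.43 ± 0.40 (adjusted p = 0.0173), a call lost without Il-17rb-Cre replicate 1 or 2 (0.0561 and 0.0583). Lrp1, a receptor that takes up apolipoprotein E particles, did not pass in any comparison. It was at 42.7 to 84.3 CPM in Il-17ra-Cre, 48.1 to 67.05 in Il-17rb-Cre and 60.8 to 107 in Il-17rc-Cre, and its log2 fold change of -0.57 ± 0.27 against Il-17rc-Cre passed without Il-17ra-Cre replicate 2 (adjusted p = 0.0426).

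Storage and removal went in opposite directions. Soat1, which esterifies cholesterol for storage in droplets, was at 39.4, 40.4 and 34.4 CPM in Il-17ra-Cre, 5.18, 6.11 and 3.87 in Il-17rb-Cre and 31.8, 46.6, 47.1 and 69.6 in Il-17rc-Cre. The Il-17rb-Cre libraries were all far below the others, with a 7.53-fold difference from Il-17ra-Cre and a 9.64-fold difference from Il-17rc-Cre, log2 fold changes of -2.91 ± 0.29 and -3.27 ± 0.29 (edgeR's adjusted p = 6.27e-05 and 2.27e-05). Cyp46a1 (GRCm38 chromosome 12, 108334381 to 108362234) encodes the neuronal 24-hydroxylase through which cholesterol leaves the brain. It was at 53.4, 94.2 and 66.4 CPM in Il-17ra-Cre, 196, 250.2 and 224 in Il-17rb-Cre and 112, 108, 139 and 83.4 in Il-17rc-Cre. Here the Il-17rb-Cre libraries were above all others, and the other groups overlapped. The log2 fold change was 1.65 ± 0.24 against Il-17ra-Cre and 1.02 ± 0.22 against Il-17rc-Cre (edgeR's adjusted p = 0.000599 and 0.0049). The 6 excitatory neuron markers were higher in Il-17rb-Cre in both comparisons as well, with median log2 fold changes of 2.21 and 2.23. Of the 6 inhibitory neuron markers, 3 were higher and none lower than in Il-17ra-Cre (median 1.39). Against Il-17rc-Cre 1 of them was higher and 1 lower (median 0.16). Of 6 pan-neuronal markers, 5 were higher and 1 lower than in Il-17ra-Cre (median 1.78). Against Il-17rc-Cre 5 of these were higher and none lower (median 1.67). The part of RNA from neurons in the Cyp46a1 level was not tested.

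Compared per kilobase of exon, the level of Apoe was the highest of the 34 genes in every group, with 3604 ± 2210 CPM per kilobase (SD, n = 3) in Il-17ra-Cre, 103.5 ± 9.25 (n = 3) in Il-17rb-Cre and 3102 ± 1245 (n = 4) in Il-17rc-Cre. In Il-17rb-Cre the next was Cyp46a1, at 67.9 ± 8.30 CPM per kilobase, and in the other groups it was Lcat, at 56.1 ± 23.5 in Il-17ra-Cre and 57.3 ± 13.2 in Il-17rc-Cre. Lcat took place 24 in Il-17rb-Cre, at 2.42 ± 1.25. Cyp46a1 took place 8 in Il-17ra-Cre and place 9 in Il-17rc-Cre. Within a library, the per-kilobase level of Cyp46a1 was 0.5216 to 0.7858 of that of Apoe in Il-17rb-Cre, 0.003498 to 0.01896 in Il-17ra-Cre and 0.008605 to 0.01436 in Il-17rc-Cre. Among the synthesis enzymes Pmvk ranked first in Il-17ra-Cre (39.8 ± 9.97) and Il-17rb-Cre (38.3 ± 4.51), while Msmo1 (42.1 ± 14.5) and Fdft1 (41.1 ± 4.40) ranked first and next in Il-17rc-Cre, a gap smaller than their spread. Fdps was last in all 3 groups.

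Each member's level in Il-17ra-Cre replicate 3 was set against the mean of replicates 1 and 2. Of the 34 genes 27 were within 2-fold of that mean. The same share over all genes was not computed, so whether the members differed less or more than other genes is not known. The 6 that were over 2-fold lower were Apoe, Abcg1, Srebf1, Npc1, Lcat (2.28-fold) and Abca1 (2.25-fold), and Msmo1 alone was over 2-fold higher. No early synthesis enzyme was among them.

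Other genes of the pathway, from a list of 53 genes outside the 34 of which 52 were tested, were called in both directions. Against Il-17ra-Cre, 9 (17.3%) were higher and 21 (40.4%) lower in Il-17rb-Cre, where 16.4% and 24.4% of all genes were, and the median log2 fold change was -0.65. Against Il-17rc-Cre, 6 (11.5%) were higher and 20 (38.5%) lower, where 17.7% and 21.9% of all genes were, with a median of -0.22. The numbers called higher were thus near or below the share over all genes. Between Il-17ra-Cre and Il-17rc-Cre 1 was higher and 2 were lower in Il-17ra-Cre (1.92% and 3.85%, against 1.38% and 0.798% of all genes). The separate lists held 6 to 10 tested genes each, and the same shares over all genes apply to their counts.

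Of 8 genes that partner the liver X receptors or make fatty acids, 5 were lower and 2 higher in Il-17rb-Cre than in Il-17ra-Cre, and 4 lower and 1 higher than in Il-17rc-Cre. Lpcat3, a phospholipid remodelling enzyme switched on by these receptors, was at 21.5 ± 0.923 CPM (SD, n = 3) in Il-17ra-Cre, 3.72 ± 1.01 (n = 3) in Il-17rb-Cre and 28.9 ± 4.19 (n = 4) in Il-17rc-Cre, a log2 fold change of -2.95 ± 0.23 against the last (edgeR's adjusted p = 1.05e-05). Scd1, a fatty acid desaturase, had a log2 fold change of -3.84 ± 0.35 in the same comparison (adjusted p = 2.92e-05). The higher genes were Rxrb, a partner of the liver X receptors, in both comparisons (1.07 ± 0.19 and 1.10 ± 0.17, adjusted p = 0.00162 and 0.000855) and Rxra, another partner, against Il-17ra-Cre (0.83 ± 0.26, adjusted p = 0.0263). The Rxra call was lost without Il-17ra-Cre replicate 1 (0.0647) or Il-17rb-Cre replicate 2 (0.095) or 3 (0.052) and against Il-17ra-Cre replicate 3 alone (0.124).

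Of 7 other efflux and lipoprotein genes, 5 were lower and 1 higher in Il-17rb-Cre than in Il-17ra-Cre, and 4 lower and 1 higher than in Il-17rc-Cre. Clu, an apolipoprotein made by astrocytes, had log2 fold changes of -2.97 ± 0.30 and -3.15 ± 0.30, and Pltp, a phospholipid transfer protein, -3.44 ± 0.38 and -4.66 ± 0.39 (edgeR's adjusted p = 7.01e-05 and 3.43e-05 for Clu, 0.000107 and 1.63e-05 for Pltp). The higher gene was Abcg4, a cholesterol exporter related to Abcg1, with 1.44 ± 0.25 and 0.84 ± 0.23 (adjusted p = 0.00149 and 0.0155), the latter call being lost without Il-17rb-Cre replicate 2 (0.0771) or 3 (0.0943).

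Among 6 genes of oxysterol and ester turnover, 2 were lower and 1 higher than in Il-17ra-Cre, and 2 lower and 2 higher than in Il-17rc-Cre. Cyp39a1, which hydroxylates the 24S-hydroxycholesterol that the Cyp46a1 enzyme makes, was higher in Il-17rb-Cre, with log2 fold changes of 2.64 ± 0.45 against Il-17ra-Cre and 2.55 ± 0.40 against Il-17rc-Cre (edgeR's adjusted p = 0.00121 and 0.000764). Its level was 21.3 ± 5.83 CPM (SD, n = 3) in Il-17rb-Cre and 3.39 ± 2.10 (n = 3) and 3.63 ± 0.941 (n = 4) in the other groups. Nceh1, a hydrolase of cholesterol esters, was higher than in Il-17rc-Cre (0.61 ± 0.15, adjusted p = 0.0102), a call lost without Il-17rb-Cre replicate 2 (0.0884) or 3 (0.0584). Cyp7b1, an oxysterol hydroxylase, was lower than in Il-17rc-Cre, with a log2 fold change of -1.75 ± 0.27 (adjusted p = 0.000722).

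Of 7 other genes that process SREBP proteins or degrade sterol enzymes, 2 (28.6%) were lower in Il-17rb-Cre than in Il-17ra-Cre, near the 24.4% of all genes, and 3 (42.9%) lower than in Il-17rc-Cre, against 21.9% of all genes, with none higher. Erlin2, an endoplasmic reticulum protein of the sterol-dependent degradation machinery, had log2 fold changes of -1.76 ± 0.21 and -1.81 ± 0.21 (edgeR's adjusted p = 0.000192 and 0.000109). Of 10 genes of transport inside the cell, 5 were lower and 2 higher than in Il-17ra-Cre, and 4 lower and 1 higher than in Il-17rc-Cre. Lamp1, a lysosomal membrane protein, was lower, with log2 fold changes of -2.35 ± 0.32 and -1.96 ± 0.30 (adjusted p = 0.000373 and 0.000715). Gramd1b, which carries cholesterol from the plasma membrane to the endoplasmic reticulum, was higher in both, with 0.58 ± 0.19 and 1.05 ± 0.17 (adjusted p = 0.0295 and 0.00099), the former call being lost without Il-17ra-Cre replicate 1 (0.0951) or 2 (0.0692) or Il-17rb-Cre replicate 2 (0.0755) or 3 (0.0924) and against Il-17ra-Cre replicate 3 alone (0.37, adjusted p = 0.325). Stard4, a cytosolic sterol carrier, was higher than in Il-17ra-Cre (1.34 ± 0.47, adjusted p = 0.0431), a call lost without any one library except Il-17ra-Cre replicate 3 and Il-17rc-Cre replicates 3 and 4 (adjusted p from 0.051 to 0.126), and at 0.56 against Il-17ra-Cre replicate 3 alone (0.481).

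Of 8 uptake receptors and their controls, 1 was lower and 1 higher in Il-17rb-Cre than in Il-17ra-Cre, and 2 were lower and none higher than in Il-17rc-Cre. Lrp8, a receptor for apolipoprotein E particles, was lower than in Il-17rc-Cre, with a log2 fold change of -1.09 ± 0.21 (edgeR's adjusted p = 0.00264). Of 6 tested further enzymes of the pathway, 1 was lower and 2 higher than in Il-17ra-Cre, and 1 lower and 1 higher than in Il-17rc-Cre. The lower one was Acss2, which makes acetyl-CoA from acetate, with log2 fold changes of -1.02 ± 0.23 and -1.27 ± 0.22 (adjusted p = 0.00595 and 0.00144), or -0.41 against Il-17ra-Cre replicate 3 alone (0.226). Rxra, Rxrb, Abcg4, Nceh1, Gramd1b and Stard4 were named after their values were seen.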

How the data were processed

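Ribosome-bound RNA of 10 mouse cortex libraries was measured by RNA-seq. The authors deposited whole-number read counts per gene, from reads aligned with STAR 2.7.5c to build GRCm38, per the submitters' processing notes. Libraries were made from amplified cDNA with a kit that does not mark strand, per the labels' protocols. The counting tool and the annotation release were not given in the sources used here, and reads of overlapping or near-identical genes cannot be assigned with certainty. Groups were taken from the labels.

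All 55536 gene identifiers were matched to GENCODE M21. Genes that passed edgeR's filter by expression were kept, all 34 members among them, leaving 20301 and removing 35235. Counts were TMM-scaled and tested with edgeR 4.0.16 (R 4.3.3) by its quasi-likelihood F test, fitted to all 10 libraries together, and p-values were adjusted by Benjamini and Hochberg over all tested genes at 0.05. Each of the 3 comparisons was adjusted separately. The common dispersion was 0.239. Errors are SD for levels and SE for log2 fold changes. Levels per kilobase use the union of annotated exons. Alternatives were DESeq2 1.42.0, limma 3.58.1 voom with quality weights, other scalings and filters, models of 2 groups or with replicate numbers as blocks, and each library left out. The fit without Il-17ra-Cre replicates 1 and 2 was added after the data were seen.

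In data simulated from these libraries, 100 genes were changed at each fold in each comparison. For Il-17rb-Cre against Il-17ra-Cre (19601 genes), 59% of 4-fold and 3% of 2-fold changes were recovered. The shares were 63% and 19% for Il-17rb-Cre against Il-17rc-Cre (19576 genes), and 68% and 12% for Il-17ra-Cre against Il-17rc-Cre (19620 genes). The 34 genes, the other pathway genes and the marker lists were chosen with earlier results of these data known. All 34 are described, and from each other pathway list at most 2 called genes with the smallest p per comparison were eligible to be named. A further 6 called higher were named after their values were seen.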

Additional observations from a re-analysis of the deposited data

Results flagged for a closer look

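In the group of 4 libraries, Il-17rc-Cre, 3 of the 34 genes had 1 library that stood far from the other 3, with a gap of more than 0.829 of the group's whole range, the 95% critical value of Dixon's test. Chance alone would mark about 1 in 20 groups. Sqle was at 67.99 CPM in replicate 4, with the others between 58.77 and 60.21 (gap 0.8433 of the range). Cyp51 was at 42.63 CPM in replicate 1, with the others between 57.38 and 59.2 (gap 0.8904). Fdps was at 1.076 CPM in replicate 4, with the others between 0.4115 and 0.5119 (gap 0.8491).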

How the results depend on the processing

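No called member changed direction under any alternative except Abcg1 for Il-17rb-Cre against Il-17ra-Cre (0.068 without both Il-17ra-Cre replicates 1 and 2). For that comparison, 2 members were called higher, against 4 with DESeq2, 5 with limma voom, 5 with upper quartile scaling and 1 without both replicates, where the median log2 fold change was -0.44. For Il-17rb-Cre against Il-17rc-Cre, the 1 member called higher became 2 with limma voom, with only the 2 groups compared and without both replicates. For Il-17ra-Cre against Il-17rc-Cre, 1 higher and 6 lower became 3 and 15 with DESeq2, 5 and 15 with limma voom, and 0 and 0 with only the 2 groups compared, with either replicate block and without both replicates, where the median was -0.74. The median of all genes tested moved with upper quartile scaling from -0.09 to 0.04 and from 0.02 to 0.13 in the comparisons of Il-17rb-Cre with Il-17ra-Cre and Il-17rc-Cre.

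Leaving out 1 library at a time gave 2 to 4 higher, 12 to 19 lower and a median of -0.75 to -0.44 for Il-17rb-Cre against Il-17ra-Cre. It gave 1 to 2 higher, 20 to 24 lower and -1.31 to -1.02 for Il-17rb-Cre against Il-17rc-Cre, and 0 to 4 higher, 0 to 11 lower and -0.46 to -0.38 for Il-17ra-Cre against Il-17rc-Cre. Values near 0 changed sign in some of these fits. Their ranges were, for Il-17ra-Cre against Il-17rc-Cre, -0.022 to 0.64 (Abca1), -0.16 to 0.65 (Apoe), -0.29 to 0.16 (Dhcr7), -0.22 to 0.17 (Hsd17b7), -0.35 to 0.27 (Lcat), -0.073 to 0.21 (Pmvk) and -0.33 to 0.60 (Srebf1). They were, for Il-17rb-Cre against Il-17rc-Cre, -0.006 to 0.21 (Ebp), -0.16 to 0.53 (Fdps), -0.053 to 0.13 (Pmvk) and -0.037 to 0.22 (Srebf2). For Il-17rb-Cre against Il-17ra-Cre they were -0.17 to 0.35 (Lrp1), -0.027 to 0.35 (Mvd) and -0.18 to 0.17 (Pmvk).

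Other signs that changed, none of a called value, were for Il-17rb-Cre against Il-17ra-Cre Pmvk (0.084 with limma voom, 0.075 with upper quartile scaling), Mvd (-0.21 without both replicates) and Lrp1 (0.13 with upper quartile scaling, 0.002 with the filter at 1 CPM, 0.005 with 2 groups, 0.038 with the replicate block, 0.046 with the library-number block, 0.32 without both replicates). For Il-17rb-Cre against Il-17rc-Cre, Pmvk was at -0.022 with limma voom and -0.024 with 2 groups. For Il-17ra-Cre against Il-17rc-Cre these were Hsd17b7 (-0.009 with DESeq2, -0.008 with its size factors, -0.01 with no filter, -0.062 with the library-number block, -0.28 without both replicates), Pmvk (-0.11 with limma voom), Dhcr7 (0.14 with limma voom, 0.13 with the replicate block), Lcat (0.15 with limma voom, 0.055 with the library-number block) and Apoe (-0.087 with the replicate block, -1.62 without both replicates). Without both replicates, Srebf1 was also at -1.59, Insig2 at 0.11, Nr1h2 at -0.003, Abca1 at -0.61 and Npc1 at -0.21. The cause of these changes was not tested, and the fit without both replicates leaves 1 Il-17ra-Cre library, assumed to vary like the other groups.

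The replicate numbers of titles or library names did not pair the libraries: correlations of same-numbered deviations ran from -0.151 to 0.247, and not every library correlated best with its own number. Without both Il-17ra-Cre replicates 1 and 2, 12 of the 20 calls of Il-17rb-Cre against Il-17ra-Cre were kept. With the replicate block, 15 of 20 calls of Il-17rb-Cre against Il-17ra-Cre were kept, 22 of 24 against Il-17rc-Cre, and 0 of 7 of Il-17ra-Cre against Il-17rc-Cre. Low counts limit Fdps most, at about 1 CPM or less. Recovery of 2-fold changes was low in simulated data with 100 genes changed at each fold. In the real comparisons of Il-17rb-Cre with Il-17ra-Cre and Il-17rc-Cre, 40.7% and 39.7% of all genes were called. The simulated shares therefore do not measure the sensitivity of these 2 comparisons. Differences that did not pass are left undecided.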
